A study of Macaca fascicularis with 10 samples.

Results

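Genes of small GTPase and G protein signalling were examined for the balance of their parental alleles in dorsal raphe tissue, a midline brainstem region that holds many serotonin neurons. They were taken by name: every row of the deposited table that starts with RAB, ARHGAP, ARHGEF, TBC1D, DOCK, DENND, RGS, RASA, RAPGEF or SIPA1 followed by a digit or L. This gave 117 of 7229 genes. Most encode proteins that switch GTPases on or off, but the RAB rows also include 28 Rab GTPases, which are the switches themselves, 5 RAB11 effectors and 3 Rab-like proteins. All are called regulators for short. The rule used no measured value. The animals were 10 female cynomolgus macaques (Macaca fascicularis), called daughters 1 to 10 here, with 1 library each. The labels give 1 group, with no treatment and no age, and name both parents of each daughter. Some share a parent (daughters 1, 7 and 8 a father, 4 and 5 a father, 6 and 10 a mother), so they are not fully independent. For every gene and daughter the table holds a paternal and a maternal count, and the comparison is the paternal allele against the maternal allele within an animal.

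Small GTPases are molecular switches, active with GTP bound and inactive with GDP bound. Guanine nucleotide exchange factors (GEFs) turn them on and GTPase-activating proteins (GAPs) turn them off. Rab GTPases direct membrane traffic, including synaptic vesicle release, with DENND proteins as exchange factors and TBC1D proteins as GAPs. Rac and Cdc42 shape the actin cytoskeleton of axons and dendritic spines. DOCK proteins are exchange factors of these switches, many ARHGEF proteins are exchange factors and many ARHGAP proteins are GAPs in cytoskeletal signalling. RASA proteins are GAPs of Ras, RAPGEF proteins exchange factors of Rap, and SIPA1-like proteins GAPs of Rap. RGS proteins speed up GTP hydrolysis by G protein alpha subunits, which shortens signalling from receptors such as those for serotonin.

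Depth set the precision of each value. Daughter 1 was the shallowest library, with 30090 allelic reads, and daughter 6 the deepest, with 999471. The 117 genes held 413 of the reads in daughter 1 and 14524 in daughter 6. All 117 had reads in at least 1 daughter, 109 reached 10 reads in at least 1 daughter and 64 did so in 5 or more. Of the other 53, 45 reached 10 reads in fewer than 5 daughters. The last 8, RAB2A, RAB38, ARHGAP6, ARHGEF16, ARHGEF19, DENND1C, RASAL3 and TBC1D8B, never did. Of 5 serotonin neuron markers 4 were in the table, with 0 to 6386 summed reads per daughter and reads in 9 daughters. All 3 endothelial markers were in the table, with 11 to 598 summed reads per daughter and reads in all 10 daughters. The choroid plexus marker TTR had 0 to 279 reads, with reads in 6 daughters. No marker of oligodendrocytes, astrocytes, microglia or cerebellum had a row, so admixture of those cells was not tested.

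The alleles of these regulators were close to balance when all reads were pooled. The paternal share, the percent of allelic reads in the paternal column, averaged 49.5% ± 1.37 over the 10 daughters (SD), from 47.4% in daughter 2 to 51.4% in daughter 4. Gene by gene there were 570 values with 10 or more reads in a daughter. Of these, 429 (75.3%) lay between 40% and 60% paternal, against 69.8% of the 27887 such values of all genes. The tissue was measured in bulk, so a share is a mean over all cells, and fewer cells of a type and less RNA per cell cannot be told apart.

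**Figure D1:**
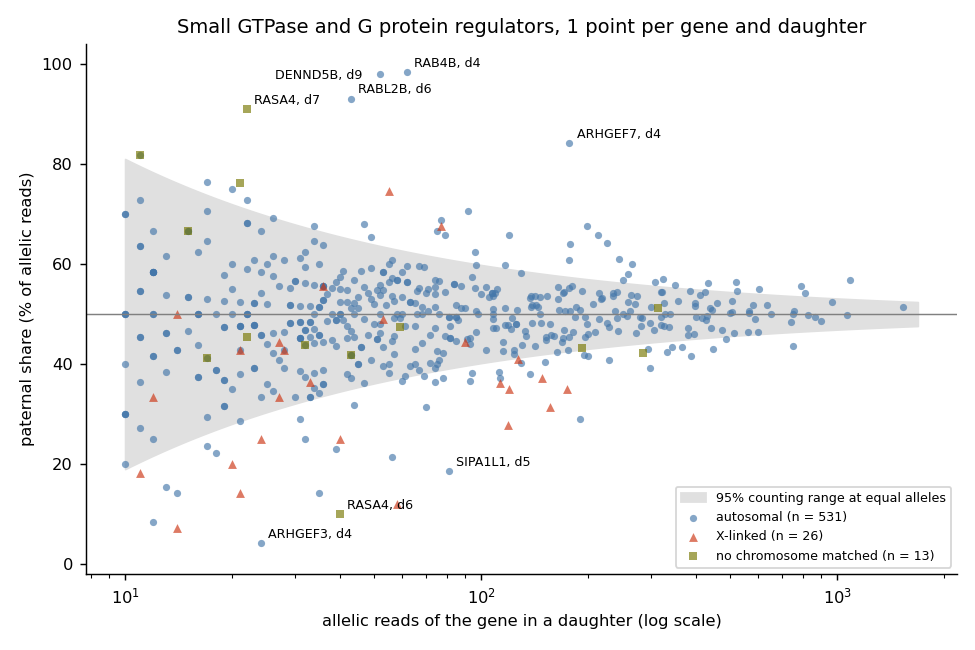
Paternal share of each regulator in each daughter (vertical axis, % of allelic reads) against the gene's allelic reads in that daughter (log scale), for the 570 values with 10 or more reads. The grey band is the 95% counting range around equal alleles. Most points lie near 50%, labelled points stand apart in 1 daughter (d4 is daughter 4), and the X-linked triangles lie mostly below 50%.

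No regulator passed the test for higher expression from the same parent's allele across daughters. By the quasi-likelihood test of edgeR, blocked by daughter, 0 of the 64 tested regulators passed a Benjamini-Hochberg adjusted p of 0.05, and the share called over all 2981 genes tested was 0.0%. DESeq2, and limma on log2 ratios, also called 0. At an unadjusted p under 0.05 there were 4 of the 64 with edgeR, 5 with limma and 1 with DESeq2. Over all genes the share at that level was 3.12% with edgeR, 4.33% with limma and 2.08% with DESeq2. Of the 64, 29 had a paternal over maternal log2 ratio above 0 and 35 below. Their mean shares had a median of 49.7%, beside 49.8% over all genes tested, and 51 of 64 (79.7%) lay between 45% and 55%, beside 77.3% of all. The test looks for a shift towards the same parent in all daughters, and shifts towards different parents in different daughters do not add up in it.

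The regulators with the smallest p, none of which passed, are given by value. ARHGAP44, a GAP found at dendritic spines, lay under 50% paternal in 6 of 6 daughters. Its shares were 35.3%, 40.3%, 43.5%, 44.7%, 45.8% and 46.0%, with a log2 ratio of -0.44 ± 0.15 (SE, edgeR adjusted p = 1, unadjusted 0.0133). Each of the 6 counting intervals includes 50%. RAB11FIP4, an effector of the recycling endosome switch RAB11, lay under 50% in 8 of 9 daughters, from 38.1% through a median of 45.1% to 53.6% (log2 ratio -0.22 ± 0.10 SE). ARHGAP15, a Rac GAP with a log2 ratio of -1.01 ± 0.39 (SE), averaged 38.1% ± 15.8 (SD, n = 5). That mean rests in part on daughter 5, with 14.3% of 35 reads, and was 44.1% ± 9.86 over the other 4 daughters. ARHGEF6, which is X-linked and described with those genes, had a log2 ratio of -0.63 ± 0.26 (SE). TBC1D8 averaged 41.1% ± 12.6 (SD, n = 6), under 50% in 5 of 6 daughters. On the paternal side, DENND2A, a Rab exchange factor, ranged from 44.7% through a median of 53.5% to 70.7% and averaged 55.9% ± 8.20 (SD, n = 9). DOCK10, an exchange factor of Cdc42, lay over 50% in 8 of 10 daughters, between 48.0% and 59.7%. RAB15, an endosomal Rab, averaged 54.2% ± 7.61 and TBC1D31 54.7% ± 6.83 (SD, n = 8 each).

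Among Rab pathway genes, the Rab GTPases themselves were the largest group. Of 28, 26 had values, and 71 of their 92 values lay between 40% and 60%. RAB3A, the Rab of synaptic vesicles, was read deeply in 3 daughters. Daughter 2 had 46.3% of 514 reads, daughter 6 had 51.5% of 1531 and daughter 9 had 52.3% of 398, all near balance. RAB6A, which acts in traffic at the Golgi, averaged 47.4% ± 2.58 (SD, n = 5), with a narrow range of 44.1% to 50.1%. Its paralog RAB6B, expressed mainly in neurons, was wider, with 64.7%, 60%, 43.3%, 48.0% and 56.9% in daughters 1, 3, 4, 7 and 8. RAB14 averaged 49.9%, with 46.9% to 52.3% in 3 daughters. RAB5C, an early endosome Rab, had 50% to 55% in 3. RABL6, a Rab-like protein, had 46.6% to 61.1% in daughters 3 to 10, and 8.33% and 25% in daughters 1 and 2 on 12 reads each. RAB31 averaged 49.6% ± 5.24 (SD, n = 5). The 5 RAB11 effectors had 26 of 29 values between 40% and 60%. RAB3GAP1, a subunit of the complex that switches RAB3 off, was read at 63 to 449 reads and lay on both sides. It had 56.5% in daughter 4 and 56.2% in daughter 5, against 39.7%, 43.0%, 47.4% and 37.2% in daughters 1, 2, 8 and 9.

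**Figure D2:**
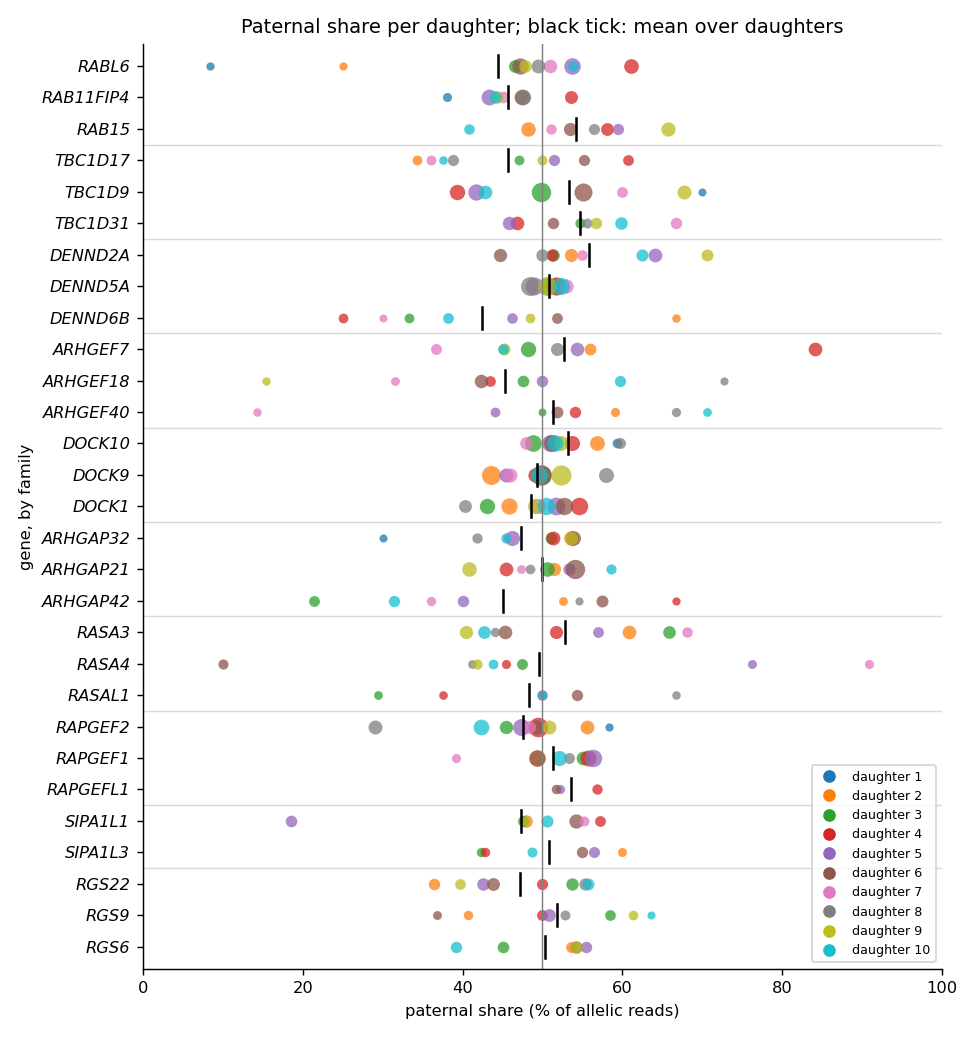
Paternal share (horizontal axis, % of allelic reads) of up to 3 regulators per family, those measured in most daughters. Each point is a daughter, point size grows with reads, and the black tick is the mean. DENND5A and DOCK10 are narrow, while RASA4 runs from 10% to 90.9%.

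The exchange factors and GAPs of Rab were mixed in spread. DENND5A, a DENND exchange factor, had the narrowest spread of the 64, with 48.4% to 53.0% over 8 daughters and a mean of 50.9% ± 1.58 (SD). It was also read deeply, at 217 to 754 reads. TBC1D14, a TBC1D protein that acts in autophagy, averaged 49.3% ± 3.48 (SD, n = 5). TBC1D9 was less even. Low shares came from daughters 4 (39.3%, 298 reads), 5 (41.6%, 389 reads) and 10 (42.9%, 175 reads). High shares came from daughters 6 (55.1%, 603 reads) and 9 (67.7%, 198 reads), while daughter 3 had 49.8% of 826 reads. Daughters 1 and 7 had 70% and 60%, on 10 and 55 reads. The intervals of daughters 4 and 5 lay wholly under 50% and those of daughters 6 and 9 wholly over it. TBC1D4, which controls delivery of the insulin-responsive glucose transporter, averaged 46.9% ± 9.26 and DENND6B 42.5% ± 13.6 (SD, n = 8 each).

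Regulators of the cytoskeleton came from the DOCK, ARHGEF and ARHGAP families. DOCK1, an exchange factor of Rac, ranged from 40.3% through a median of 49.5% to 54.6% and averaged 48.6% ± 4.66 (SD, n = 9). DOCK9, an exchange factor of Cdc42, ranged from 43.5% through 49.5% to 57.9% (mean 49.3% ± 4.23, SD, n = 9). ARHGEF12, an exchange factor that G protein alpha subunits activate, was among the most even, at 48.5% to 54.1% over 7 daughters (mean 50.6% ± 2.06, SD). ARHGEF25 had 49.6% to 54.95% in 5 daughters. ARHGEF18, another exchange factor, ranged from 15.4% of 13 reads to 72.7% of 11, so its wide range lies at low counts. Among GAPs, ARHGAP32, enriched at synapses, averaged 47.3% ± 7.37 (SD, n = 10) and ARHGAP21 50% ± 5.22 (SD, n = 9). ARHGAP5, a GAP read at up to 1084 reads, shifted little but beyond counting error. It had 55.6% in daughter 5 and 56.8% in daughter 6, with intervals wholly over 50%, and 44.97% in daughter 3, with an interval wholly under.

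Ras, Rap and G protein regulators stayed near balance on average. RASA3, a GAP of Ras and Rap, averaged 52.9% ± 10.5 (SD, n = 9), from 40.4% in daughter 9 to 68.1% in daughter 7. RASAL1, a calcium-dependent Ras GAP, averaged 48.3% ± 11.9 (SD, n = 7). RAPGEF1 averaged 51.3% ± 5.61 (SD, n = 8) and SIPA1L3 50.9% ± 7.40 (SD, n = 6). Of the RGS genes, RGS9, known for signalling at dopamine and opioid receptors in the striatum, averaged 51.8% ± 9.46 (SD, n = 8). RGS6, of the same subfamily, ranged from 39.2% through a median of 53.9% to 55.4% over 6 daughters. RGS22 averaged 47.2% ± 7.49 (SD, n = 8). RGS10, RGS11 and RGS19 had values in 2, 4 and 1 daughters and were not tested. Of 29 RGS values, 2 (6.90%) had a 95% Wilson interval that left out 50%, where the share over all genes was 20.1%. The same held for 7 of 24 RASA values (29.2%), 4 of 21 RAPGEF values (19.0%) and 1 of 14 SIPA1 values (7.14%).

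Within single daughters, departures from balance beyond counting error were not rare. Of the 570 values, 98 (17.2%) had a 95% Wilson interval that left out 50%, against 20.1% over all genes, and this rule has no replicate. Wholly over 50% were 43 values, where the share over all genes was 9.5%, and wholly under 50% were 55, where it was 10.6%. The share with such an interval grows with reads, so values were also compared within read classes. Among autosomal regulators it was 9.21% at 10 to 49 reads, 15.0% at 50 to 199 and 25.2% at 200 or more. Among all autosomal genes it was 13.2%, 19.9% and 32.6% in the same classes. At 200 or more reads, 99 of 103 autosomal values (96.1%) lay between 40% and 60%, beside 91.0% of such values of all autosomal genes. The other 4 were RABL6 at 61.1% in daughter 4, RAB22A at 64.2% in daughter 6, RAB15 at 65.7% in daughter 9 and TBC1D9 at 39.3% in daughter 4. Intervals cover counting error only, since reads without molecular identifiers are not independent molecules. Of the 64 tested regulators, 38 had such an interval in at least 1 daughter and 14 had them on both sides in different daughters.

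The spread between daughters was larger than counting error for many regulators. The SD of the share between daughters had a median of 8.43 percentage points over the 64 regulators, beside 9.53 over all genes tested. The chi-square of the counts around a gene's own mean share, divided by its degrees of freedom, would be near 1 for counting error alone. Its median was 1.80 over the regulators and 2.01 over all genes tested. It was above 5 in 10 of 64 (15.6%), beside 17.8% of all genes tested. These 10, named after their values were seen where the rule for named genes does not hold them, were ARHGEF7, RAB4B, TBC1D9, DENND5B, ARHGEF6, RASA4, RAB3GAP1, RAB6B, DOCK11 and ARHGAP5. ARHGEF6 and DOCK11 are X-linked.

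A few regulators were read almost wholly from 1 allele in a single daughter. At 20 reads and above there were 491 values, and in 6 of them at least 90% came from 1 side (4 paternal, 2 maternal), which is 1.22%, where the share over all genes was 1.6%. RAB4B, a Rab of recycling endosomes, had 61 paternal reads and 1 maternal read in daughter 4. Its shares elsewhere were 52.6%, 54.3%, 53.2%, 65.8% and 55.5% in daughters 3, 5, 6, 8 and 10, so daughter 4 stood apart. The mean was 63.3% ± 17.9 over 6 daughters and 56.3% ± 5.44 over the 5 others (SD), and the log2 ratio of 0.76 ± 0.46 (SE, edgeR) was 0.38 ± 0.17 without daughter 4. DENND5B, a paralog of DENND5A, had 51 paternal reads and 1 maternal read in daughter 9. Its other 6 daughters had 45.5% to 56.7%, at 30 to 401 reads, with a mean of 51.2% ± 4.02 (SD). ARHGEF3, an exchange factor, had 1 paternal and 23 maternal reads in daughter 4, and 55.6% and 45.7% in daughters 2 and 6. RABL2B had 40 paternal and 3 maternal reads in daughter 6, the only daughter with 10 or more. RASA4, a calcium-dependent Ras GAP, had 20 paternal and 2 maternal reads in daughter 7, and 4 paternal and 36 maternal in daughter 6. In the other 6 daughters RASA4 had 41.2% to 76.2%. RASA4 and RABL2B have near-identical copies in human, so their counts may be split between copies and are uncertain.

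Just under that threshold, X-linked genes aside, came ARHGAP15 with 14.3% of 35 reads in daughter 5, ARHGEF7 with 84.2% and SIPA1L1 with 18.5%. ARHGEF7, an exchange factor of Rac and Cdc42 at synapses, had 149 paternal and 28 maternal reads in daughter 4. Its other 7 daughters had 36.7% to 56.0%, with a mean of 48.2% ± 6.62 (SD). SIPA1L1, a Rap GAP of dendritic spines, had 15 paternal and 66 maternal reads in daughter 5, against 47.5% to 57.1% in the other 7. RAPGEF2, an exchange factor of Rap, stood at 29.1% (189 reads) in daughter 8, while the other 9 ranged over 42.3% to 58.3%. Its deepest value was 49.5%, from the 865 reads of daughter 4.

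**Figure D3:**
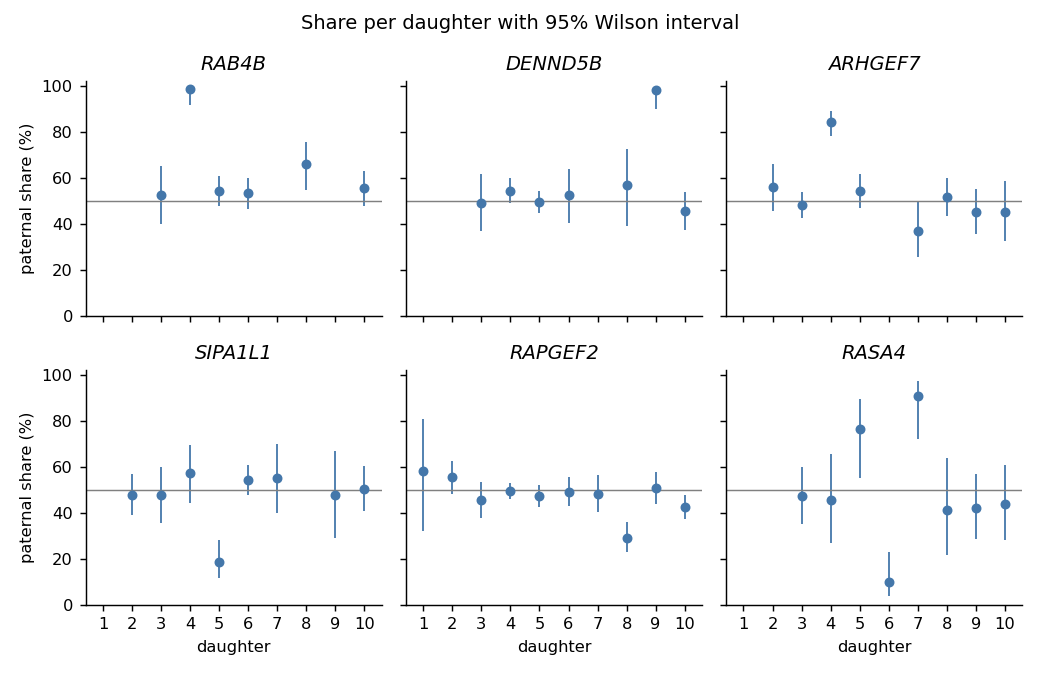
Paternal share (vertical axis, % of allelic reads) by daughter for 6 regulators with a daughter that stood apart, with 95% Wilson intervals for counting error. Daughters with fewer than 10 reads have no point. RAB4B and ARHGEF7 are high in daughter 4, DENND5B in daughter 9, SIPA1L1 is low in daughter 5 and RAPGEF2 in daughter 8, and RASA4 is high in daughter 7 and low in daughter 6.

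For the regulators given below, the nearest genes with enough reads varied in the same daughter. They need not be adjacent to the regulators, and no distances are given. The nearest 2 genes on each side with 20 or more reads were looked up by name in the gene table of another assembly, a step added after the values were seen. Of the 26 found, 16 (61.5%) lay between 40% and 60%, beside 69.8% of the values of all genes. The latter share is for 10 or more reads and includes X-linked genes, so the 2 shares are not at like settings. Since the regulators were picked as extreme values, no comparison of neighbours with them is made. Around RAB4B in daughter 4 the 4 neighbours had 43.5% to 57.4% paternal. Around ARHGEF3 in daughter 4 they had 52.5% to 62.1%. Around RABL2B in daughter 6 the 2 found had 55.6% and 66.7%, and none were found for RASA4. Around DENND5B in daughter 9 they had 34.4% to 66.0%, on both sides of balance. Around ARHGEF7 in daughter 4 they had 45.4% to 64.6%, with 3 of the 4 over 60%. Around SIPA1L1 in daughter 5 they had 46.2% to 60.6%, among them RGS6 at 55.4%. Around RAPGEF2 in daughter 8 they had 27.3% to 50%, the lowest of them FNIP2 on 33 reads.

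X-linked regulators lay farther from balance than autosomal ones. Cells of a female silence 1 X chromosome, so in a tissue sample the share of an X-linked gene follows which X is active in more cells. Of the 117 regulators 8 are X-linked, 6 had values and 2, ARHGEF6 and DOCK11, were tested. Of their 26 values, 16 had an interval that left out 50%, where the share over all X-linked genes was 53.0% and over all autosomal genes 18.9%. Per daughter, the median distance from 50% was 14.1 ± 8.21 percentage points for X-linked regulators and 4.96 ± 0.806 for autosomal regulators (SD, n = 9 daughters). It was larger for X-linked regulators in 8 of 9 daughters, all but daughter 7, and daughter 1 had no X-linked value. Each X-linked median rests on 1 to 4 genes, beside 41 to 72 autosomal ones. Daughter 8 has DOCK11 alone, on 28 reads, with an interval that includes 50% (26.5 to 60.9). X-linked values also had fewer reads (median 38, beside 60), which widens distances by counting error. The mean difference was 9.11 points, 8.82 at 20 or more reads and 10.9 at 50 or more reads. At 50 or more reads only ARHGEF6, DOCK11 and ARHGAP36 had X-linked values, and daughters 7 and 8 dropped out. The difference was 14.3 ± 6.92 points in the 5 daughters with title prefix 10203 and 2.66 ± 4.82 in the 4 with prefix 10480 (SD). The labels do not say what the prefix stands for. Other X-linked genes also shifted by different amounts from daughter to daughter, so prefix and daughter cannot be told apart.

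Most values of X-linked regulators lay on the same side of 50% as the other X-linked genes of the same daughter. Of the 26 values, 22 lay on the side of the median of the other X-linked genes, 1 was at 50% and 13 lay within their quartiles. Quartiles hold the middle 50% of those genes by definition, and the same counts over all X-linked genes were not made. Outside daughter 4, every value on the same side lay under 50%. The other X-linked genes also had a median over 50% in daughters 7 and 8 (57.7% and 53.5%), where no X-linked regulator lay over 50%. ARHGEF6, an exchange factor of Rac and Cdc42 linked to intellectual disability in humans, had 36.3%, 27.7%, 67.5%, 31.4%, 35.1%, 49.1% and 35% in daughters 2, 3, 4, 5, 6, 9 and 10. Daughter 4 alone was over 50%. The median of the other X-linked genes in those daughters was 39.5%, 28.3%, 73.6%, 27.6%, 44.5%, 43.3% and 29.5%, also over 50% in daughter 4 alone. DOCK11, an exchange factor of Cdc42, ranged from 12.1% of 58 reads in daughter 3 through a median of 40.9% to 74.5% of 55 reads in daughter 4. Its share was 44.4% on 90 reads in daughter 5 (interval 34.6 to 54.7), against 27.6% for the other X-linked genes. ARHGAP4, a GAP, was low at 7.14%, 20%, 18.2% and 42.9% in daughters 2, 3, 5 and 9, on 11 to 21 reads each. RAB33A, a Rab expressed in brain, had 25% in daughter 5, 55.6% in daughter 6 and 14.3% in daughter 10. TBC1D25 had 25% in daughter 3 and 44.4% in daughter 7, and ARHGAP36 37.2% of 148 reads in daughter 2. Without daughter 4 the mean of ARHGEF6 was 35.8% ± 7.23 over 6 daughters, against 40.3% ± 13.7 over 7 (SD).

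**Figure D4:**
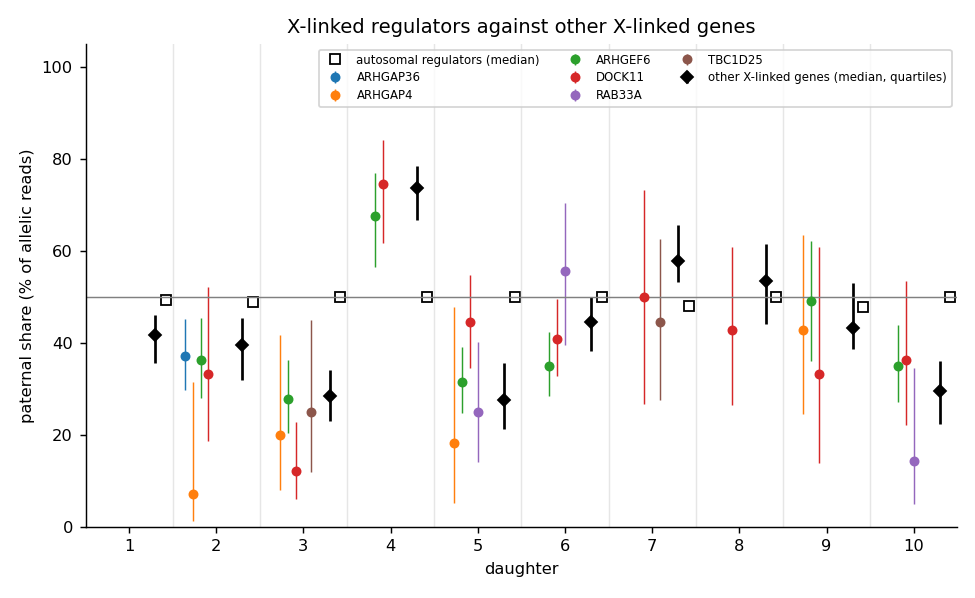
Paternal share (vertical axis, % of allelic reads) of the 6 X-linked regulators with values, by daughter, with 95% Wilson intervals. Black diamonds are the median and quartiles of the other X-linked genes and open squares the median of autosomal regulators. Daughter 4 lies over 50% for both ARHGEF6 and DOCK11, while autosomal medians stay between 47.9% and 50%.

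No regulator was called for a paternal to maternal ratio that differed between the title prefixes of the samples. The interaction of parental column and prefix called 0 of the 64 with edgeR, where the share called over all genes was 0.0335%. At an unadjusted p under 0.05 there was 1 of 64 with edgeR, ARHGAP15, and 0 with DESeq2. The share of all genes at that level was 3.56% with edgeR and 2.42% with DESeq2, so 1 of 64 is no result.

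Other genes of these pathways were taken from 6 lists of switches, inhibitors, further GEFs and GAPs, G protein subunits and effectors. These name 156 genes, of which 74 had a row and 42 could be tested. There were 0 calls towards the paternal and 0 towards the maternal allele by edgeR, and 1 at an unadjusted p under 0.05. PREX1 and PREX2, exchange factors of Rac, averaged 47.2% ± 9.47 and 50.9% ± 5.60 (SD, n = 10 each). GNAQ, an alpha subunit that RGS proteins act on, averaged 49.5% ± 2.79 (SD, n = 6). GNA11, its paralog, averaged 46.2% ± 19.6 (SD, n = 8) and ranged from 0% through a median of 50.7% to 66.7%. The read count behind the 0% is not given here and can be as low as 10, the minimum for a share. CHM, the X-linked escort protein that presents Rabs for prenylation, ranged from 24.03% through 50% to 78.1% over 9 daughters. The adenylate cyclase gene ADCY1 averaged 56.1% ± 6.10 (SD, n = 9). Over all lists, 69 of 353 values (19.5%) had an interval that left out 50%, beside 20.1% over all genes.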

How the data were processed

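Total RNA of the dorsal raphe nucleus was depleted of ribosomal RNA and read in strand-specific, paired-end libraries of 101 cycles, per the labels' protocols. The extraction entry further lists isolation of histone complexes with an antibody, a chromatin step that a total RNA library does not need, and how it bears on these libraries is not stated. The authors deposited raw allelic counts, as whole numbers, in 20 columns: each daughter has 1 per parent. The build, per the file headers, is macFas5. Per the submitters' processing notes the aligner Novoalign was among the tools, version not stated. Phasing, read filters and the use of strand in counting are not given in the sources used here, nor is whether reads without a distinguishing base were counted, which would pull shares towards 50%. Without the use of strand, reads of overlapping genes cannot be told apart.

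The paternal column was tested against the maternal by edgeR (version 4.0.16, R 4.3.3; robust glmQLFit and glmQLFTest), fitted on all genes that reached 10 allelic reads in at least 5 daughters, with the daughter as block because both columns come from 1 animal. The library size was the sum of both columns. A daughter without a value for a gene entered with 0 in both columns, which adds nothing to the allele ratio. limma 3.58.1 on log2 ratios (0.5 added to each count) instead left such daughters out, and DESeq2 1.42.0 was the other count tool. SE of a log2 ratio was taken from the ratio and its F statistic. The model was also run on simulated data with 2981 genes, 200 of them changed. There edgeR recovered 86% of 2-fold and 100% of 4-fold changes with 7 false calls, and limma 84% and 100% with 16. The spread of shares between daughters was assumed in it (overdispersion 0.02), so these rates need not hold for the real data.

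Shares of single daughters carry 95% Wilson intervals, for counting error only. Chromosomes came by symbol from the gene table of assembly T2T-MFA8v1.1, another build, so no coordinates are given; 114 of the 117 regulators matched. Python 3.11.15 and pandas 2.3.3 were used. All daughters form 1 group of separate animals. The regulators and pathway lists were chosen with earlier results of these data known. Named genes were up to 3 per family measured in most daughters, the 5 smallest p per direction, the 6 highest and 5 lowest SDs, genes with 90% or more on 1 side, X-linked genes in 3 or more daughters, and up to 3 per pathway list. Alternatives were other library sizes, read minimums, tools, interval types and thresholds, and leaving out each daughter.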

Additional observations from a re-analysis of the deposited data

Results flagged for a closer look

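For 11 of 76 sets of values with 4 to 10 daughters, all at 10 or more reads and mostly of single genes, 1 daughter lay farther from the rest than Dixon's 95% limit allows. Chance flags about 1 in 20 sets if the values of a set are equally precise. These shares rest on unequal reads, so that rate need not hold, and no test was made on the number. Sets that stood apart at 50 or more reads were RAB4B in daughter 4 (98.4%), DENND5B in daughter 9 (98.1%), ARHGEF7 in daughter 4 (84.2%) and SIPA1L1 in daughter 5 (18.5%). Their intervals leave out every share of their other daughters with 10 or more reads.

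The remaining 7 rest on 10 to 26 reads. ARHGAP31, a GAP of Rac and Cdc42, had 34.6% of 26 reads in daughter 2 and 50% to 58.3% in 5 others. ARHGAP32 had 30% of 10 reads in daughter 1 and 41.9% to 53.8% in 9 others. ARHGEF40 had 14.3% of 14 reads in daughter 7 and 44.1% to 70.6% in 7 others. RAB11FIP2 had 69.2% of 26 reads in daughter 7 and 43.8% to 50% in 4 others. RAB40C had 68.2% of 22 reads in daughter 3 and 47.6% to 50% in 3 others. RAPGEF1 had 39.1% of 23 reads in daughter 7 and 49.3% to 56.4% in 7 others. RGS11 had 55% of 20 reads in daughter 6 and 45.2% to 46.7% in 3 others. Of these 7, the intervals of ARHGEF40 and RAB11FIP2 leave out 50%.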

How the results depend on the processing

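The 0 calls among the regulators held under every alternative run, for the parental comparison and for the title prefix. Over all genes, the parental comparison called 2 without the read filter and 0 to 1 when each daughter was left out (1 without daughter 4), none of them a regulator. Without the replicate block it called 0, also at an unadjusted p under 0.05, and the pairing is by animal. The prefix comparison called 1 gene over all genes, and 0 with DESeq2, 0 without the filter, 0 with 20 reads in 5 daughters and 0 to 2 when each daughter was left out (0 without daughters 1, 3, 4, 5 and 2 without daughters 7 and 9). The 10 log2 ratios of the regulators with the smallest p kept their sign in every alternative run that held the gene. ARHGAP15 fell under the read filter with 20 reads in 5 daughters and when daughter 4, 5, 7, 9 or 10 was left out. Its ratio without daughter 5, on which its mean rests in part, was therefore not obtained. TBC1D8 fell under the filter with 20 reads in 5 daughters. Leaving out 1 daughter moved 3 of them by over 1.5 times: RAB4B was 0.38 without daughter 4, RAB15 0.16 without daughter 9 (0.27 with it) and TBC1D31 0.17 without daughter 7 (0.27 with it). The count of values with 90% or more on 1 side, 6, became 12 at 80%, 3 at 95% and 2 at 50 or more reads, and was 4 to 6 when each daughter was left out. At 50 or more reads the median SD between daughters was 6.24 points and the median chi-square per degree of freedom 2.78, over fewer regulators. The share of intervals that left out 50% stayed between 16.2% and 17.8% and the X-linked difference between 7.37 and 10.5 points when each daughter was left out. Depth limits daughter 1 most, with 12 regulators at 10 or more reads.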

Other observations

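Daughters with the same labelled parent were set side by side for the 10 regulators with the widest spread beyond counting error, wherever both had 10 or more reads, as values with no test. Daughters 4 and 5 have the same father. They had 56.5% and 56.2% for RAB3GAP1, 39.3% and 41.6% for TBC1D9, and 54.3% and 49.4% for DENND5B. They lay farther apart for RAB4B (98.4% and 54.3%), ARHGEF7 (84.2% and 54.4%) and RASA4 (45.5% and 76.2%). The X-linked genes also lay apart in them, with 67.5% and 31.4% for ARHGEF6 and 74.5% and 44.4% for DOCK11. Daughters 7 and 8, which also share a father, had 36.7% and 51.8% for ARHGEF7, 90.9% and 41.2% for RASA4, 48.0% and 56.9% for RAB6B, and 50% and 42.9% for DOCK11. Daughter 1, of that father too, had 64.7% for RAB6B. It had 70% for TBC1D9 and 54.2% for ARHGAP5, beside 60% and 48.1% in daughter 7, and 39.7% for RAB3GAP1, beside 47.4% in daughter 8. Daughters 6 and 10 have the same mother. They were close for ARHGEF6 (35.1% and 35%), DOCK11 (40.9% and 36.4%) and RAB4B (53.2% and 55.5%). They lay farther apart for ARHGAP5 (56.8% and 46.4%), TBC1D9 (55.1% and 42.9%), DENND5B (52.3% and 45.5%) and RASA4 (10% and 43.8%). Sharing a parent does not tell which of that parent's copies each daughter received, except for X-linked genes of daughters with the same father. A father has only 1 X chromosome, so those daughters carry the same paternal copy.

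DENND5A and DENND5B are paralogs, and they differed in daughter 9. DENND5A had 50.5% of 754 reads there and DENND5B 98.1% of 52. The paralogs ARHGEF6 and ARHGEF7, on the X chromosome and on an autosome, also differed within daughters. In daughter 3 ARHGEF6 had 27.7% of 119 reads and ARHGEF7 48.1% of 297. In daughter 4 both lay over 50%, at 67.5% and 84.2%.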
